A study of Rattus norvegicus with 16 samples.

Results

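The suppressors of cytokine signalling were examined in rat INS1 β cells that overexpressed Pax5 or GFP. The family was taken as 8 genes, Cish and Socs1 to Socs7, found by their gene symbol in the annotation of the array. A transcript cluster, the set of probes that reads 1 gene, carries the symbol of 7 of the 8 genes, each of them with a single cluster. Socs7 has no named cluster here and was not analysed. These 7 genes are among 15037 gene symbols that stand for 15049 named clusters, out of 23188 clusters in all.

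The cells were 832/13 INS1 β cells, a clonal line derived from a rat insulinoma, so every array comes from 1 clone of tumour cells. They received a lentiviral vector with Pax5 (n = 8 arrays) or with GFP (n = 8 arrays), the control, at an MOI of 1.25. Transduction lasted 24 h in both groups, the culture medium held 11.1 mM glucose, and cells were collected at 72 h. The labels number 8 experiments, each with 1 Pax5 and 1 GFP array. According to the study's text, its lentiviral vectors used the human phosphoglycerate kinase promoter, which is not specific for β cells, and both HA-tagged and untagged Pax5 were used, without saying which form was on these arrays. Arrays of untransduced cells were not analysed here, so each difference is between 2 transduced cultures.

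Cytokines and hormones such as growth hormone, prolactin, interleukins and interferons bind receptors that carry Janus kinases (JAKs), which phosphorylate STAT transcription factors. STATs then switch on genes of the SOCS family, whose products bind the receptor or the kinase through an SH2 domain and shut the signal off, a classic negative feedback loop. Each protein of the family ends in a SOCS box, which recruits elongins B and C and a cullin-5 ubiquitin ligase that marks the bound target for degradation. In β cells, prolactin and growth hormone act through STAT5, while SOCS1 and SOCS3 are known to dampen responses to interferon-γ and other inflammatory cytokines.

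RNA from the 16 arrays was compared as log2 values that the authors made with RMA, a method that removes background, puts arrays on a common scale and gives 1 value per cluster. Pax5 was set against GFP within experiments in limma, and a cluster was called at an adjusted p under 0.05 (Benjamini-Hochberg, all 23188 clusters). Array medians lay between 6.98 and 7.01. The Pax5 cluster had a log2 value of 17.26 ± 0.191 in Pax5 cells and 7.93 ± 0.409 in GFP cells (SD, n = 8 each), higher in every experiment. All 10 measured β cell markers were brighter than the median cluster in the mean over all arrays, and all 8 measured markers of other cell types (among them Ptprc of leukocytes and Krt19 of ducts) were dimmer than it. Of the β cell markers 4 were higher and 2 lower in Pax5 cells. None of the 8 markers of other cell types was called by limma. At an unadjusted p under 0.05, 2 of these 8 were higher, and 4 were called without the experiment as a block. Across the array 30.7% of clusters were called. Of the 8, 5 lay among the dimmest 30% of clusters, so the counts of the 2 sets are not read against each other. Among 6 measured markers of other islet cells, the glucagon gene Gcg was bright in both groups and passed the test as higher (18.09 ± 0.118 in Pax5 cells and 17.35 ± 0.111 in GFP cells, SD, n = 8 each), while the other 5 were dimmer than the median cluster and not called; the part of Gcg in the results was not tested. Whether the 8 experiments were separate passages is not stated, and p-values cover only the spread seen among them, which may be technical. Brightness depends on the probes, so the comparisons with the median cluster are rough, and levels are not otherwise compared between genes.

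Of the 7 measured family members, 3 differed between Pax5 and GFP cells, and the changes went both ways. Cish and Socs1 were higher, Socs5 was lower, and Socs2, Socs3, Socs4 and Socs6 did not pass the test. Across the array, 30.7% of the 23188 clusters passed the same test, 14.6% higher and 16.1% lower, and nothing particular to the family is read from a count of 3 in 7 beside that share. The median log2 fold change of the 7 members was -0.09, against 0.00 over all clusters. For the same 3 members the Pax5 and GFP arrays did not overlap, which held for 16.7% of all clusters. In bulk RNA, a change in every cell cannot be told apart from a change in the number of cells that express a gene or in the RNA of each cell.

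**Figure D1:**
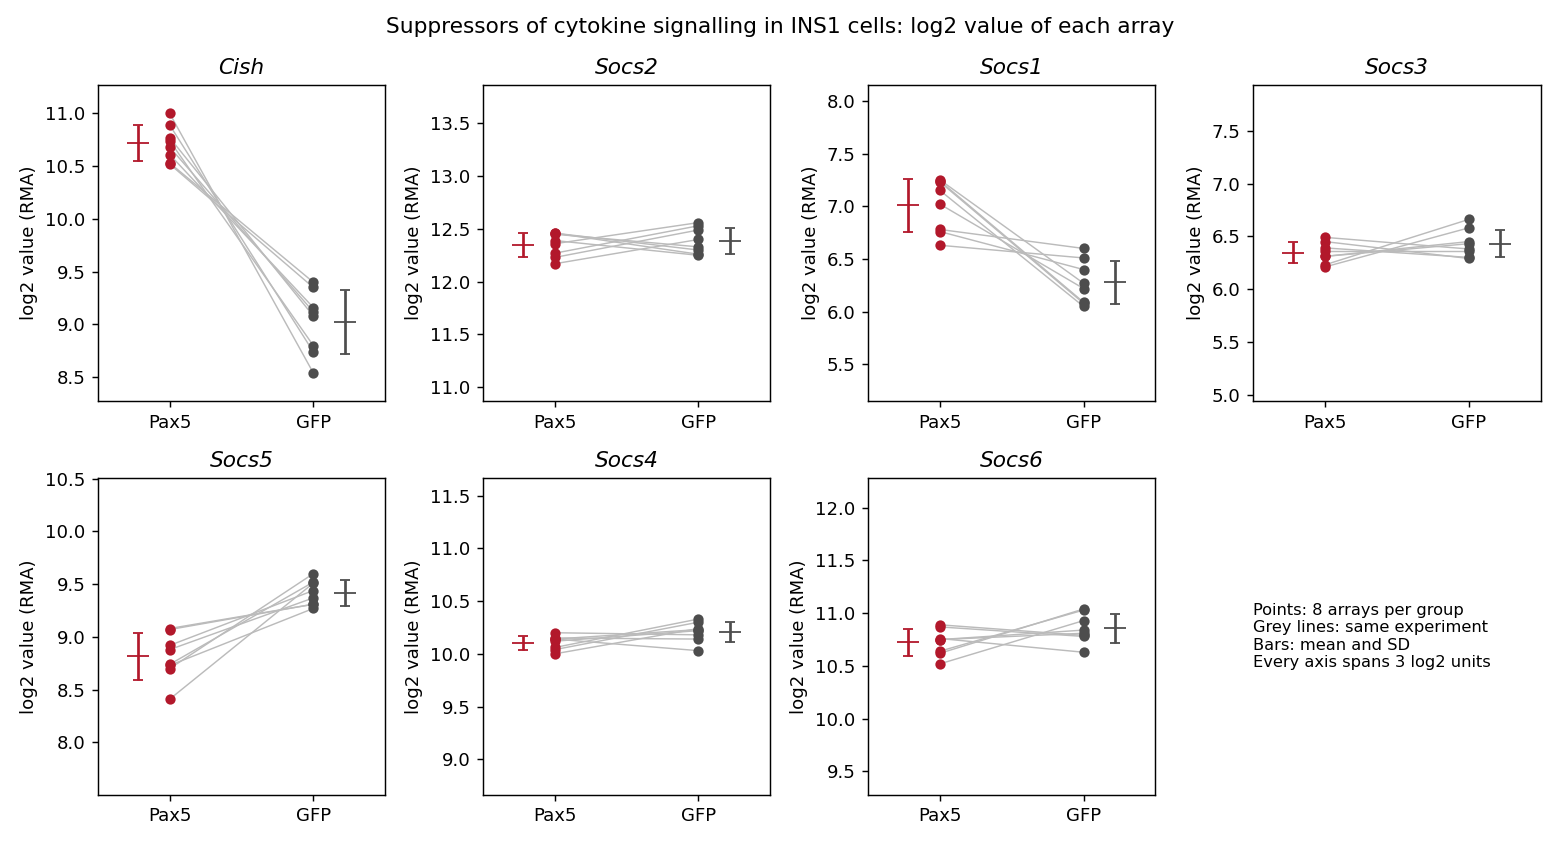
Log2 values of the 7 measured family members on each array, Pax5 on the left and GFP on the right of every panel, with grey lines joining arrays of the same experiment and bars for the mean and SD (n = 8 each). Each panel spans 3 log2 units, and only the panels of Cish, Socs1 and Socs5 show groups that do not overlap.

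Cish, which encodes CIS, a feedback inhibitor of STAT5 signalling that docks on phosphorylated cytokine receptors, was the most changed member. Its log2 value ranged over 10.52, 10.71 and 11 (lowest, median, highest of 8 arrays) in Pax5 cells, against 8.54, 9.10 and 9.40 in GFP cells. The lowest Pax5 array lay 1.12 log2 units above the highest GFP array. Cish rose by 1.69 on the log2 scale (SE 0.126, 95% interval 1.43 to 1.96, adjusted p = 5.95e-08 from limma), a 3.23-fold rise. Only 52 of the 23188 clusters rose more. The rise was seen in 8 of 8 experiments (2-sided exact permutation test, flipping the signs of the differences, p = 0.00781, the lowest possible with 8 pairs).

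The size of the Cish rise differed between experiments. It was smallest in experiment 2 (1.13) and experiment 5 (1.17) and largest in experiment 4 (2.46). Experiments 3 and 8 gave 2.15 and 1.94, and experiments 1, 6 and 7 gave 1.69, 1.45 and 1.56. Experiment 4 had both the highest Pax5 array and the lowest GFP array. Across all clusters, the deviations of the Pax5 and the GFP array of an experiment from their group means were negatively correlated in all 8 experiments (between -0.749 and -0.704), and the cause was not tested. The sources used here do not say whether values were adjusted for the experiment before deposit. An adjustment that shifts both arrays of an experiment alike would leave the differences within experiments, and tests on them, as they are. It could narrow the spread within each group. The SDs, ranges, gaps and overlap of groups, and p from a fit without the block, rest on that spread. An adjustment of another kind could bear on the differences too. The unevenness between experiments given here is that of the deposited values. Without the experiment as a block, the calls of the 7 members did not change. Adjusted p from limma was lower in that fit for Cish (2.16e-11 instead of 5.95e-08), Socs1 and Socs5. That fit is therefore no check on the calls of these genes.

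The promoter of Cish is known in mouse as a STAT5 target with paired STAT sites, so it is shown here beside the rise of the gene. The 250 bases before the annotated start of rat Cish were read from RefSeq (build GRCr8, chr8:116850719-116850968, plus strand), with matches to the STAT motif TTCNNNGAA in capitals. The motif reads the same on both strands.
Cish: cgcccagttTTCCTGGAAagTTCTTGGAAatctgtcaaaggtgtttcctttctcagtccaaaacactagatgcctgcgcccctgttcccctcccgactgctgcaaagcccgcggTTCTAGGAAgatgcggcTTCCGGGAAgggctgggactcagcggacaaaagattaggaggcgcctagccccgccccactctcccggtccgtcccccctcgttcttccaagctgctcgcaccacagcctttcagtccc
The window holds 4 matches, which begin 241, 230, 136 and 119 bases before the start and do not overlap. At least 1 match was found in 7.67% of 33469 rat promoter windows of this length, and 4 or more in 2 of them, those of Cish and LOC120095689. A match of letters is a description and does not show that a STAT binds there. RefSeq promoters were matched for 5 of the 8 family members (Cish, Socs1, Socs3, Socs4 and Socs6), and only those of Cish and Socs1 held the motif.

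**Figure D2:**
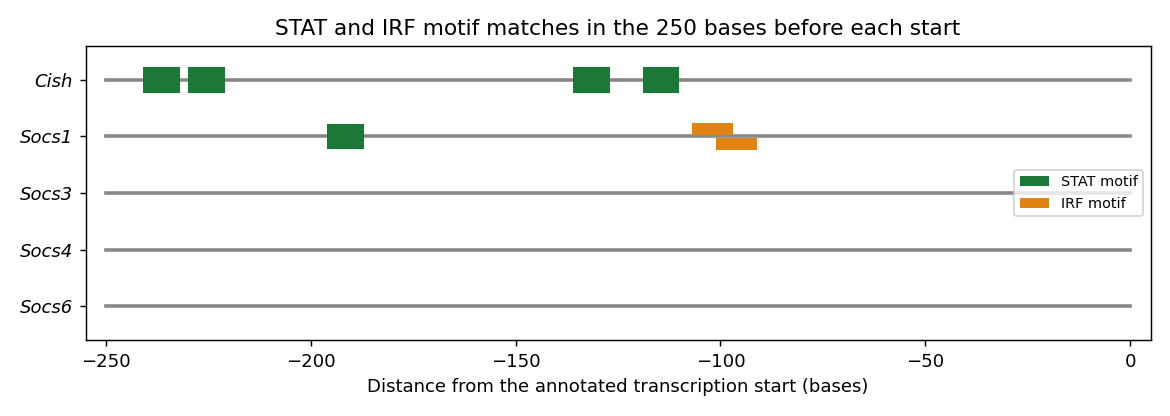
Matches to the STAT motif (green) and to the IRF motif (orange) in the 250 bases before the annotated start of 5 family members, with the distance from the start in bases on the horizontal axis. Cish carries 4 STAT matches in a pair of close couples, Socs1 carries 1 STAT match and 2 overlapping IRF matches, and the other 3 windows carry none.

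Socs2, the closest relative of Cish and a negative regulator of growth hormone signalling, did not pass the test. Its log2 value ranged over 12.17, 12.38 and 12.46 (lowest, median, highest) in Pax5 cells, against 12.25, 12.37 and 12.56 in GFP cells, and the groups overlapped over most of their range. The log2 fold change was -0.04 (SE 0.0778, 95% interval -0.21 to 0.12, adjusted p = 0.74 from limma). Experiments 3, 4, 7 and 8 had positive differences between 0.12 and 0.20, and experiments 1, 2, 5 and 6 had negative ones between -0.26 and -0.20. Socs2, like Cish, is a known target of STAT5, and the pair was compared directly. The log2 fold change of Cish exceeded that of Socs2 by 1.74 on average (SD 0.329, range 1.36 to 2.26), in 8 of 8 experiments (2-sided exact permutation test, p = 0.00781, adjusted p = 0.00781 over 3 pairs).

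Socs1, whose product inhibits JAK kinases directly through a kinase inhibitory region and which interferon-γ induces, was the other member to rise. Its log2 value ranged over 6.63, 7.09 and 7.25 (lowest, median, highest) in Pax5 cells, against 6.05, 6.25 and 6.60 in GFP cells. The groups did not overlap, but by only 0.03 log2 units, between the Pax5 array of experiment 4 and the GFP array of experiment 5. Socs1 rose by 0.73 (SE 0.121, 95% interval 0.47 to 0.99, adjusted p = 0.00023 from limma), a 1.66-fold rise. All 8 experiments showed it (2-sided exact permutation test, p = 0.00781). It was uneven, with 0.98, 1.15, 0.80, 1.15 and 1.10 in experiments 1, 2, 6, 7 and 8, and 0.36, 0.12 and 0.18 in experiments 3, 4 and 5. The cluster is slightly dimmer than the median cluster, and Socs1 is among the genes the study singled out in these cells, so its call here is not independent evidence.

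The window before the start of Socs1 (RefSeq, GRCr8, chr10:5389324-5389573, plus strand) is shown because the gene rose and its promoter is known in mouse for sites of interferon regulatory factors. Capitals mark the STAT motif TTCNNNGAA and the IRF motif (GAAA, any 2 bases, GAAA), both searched on both strands.
Socs1: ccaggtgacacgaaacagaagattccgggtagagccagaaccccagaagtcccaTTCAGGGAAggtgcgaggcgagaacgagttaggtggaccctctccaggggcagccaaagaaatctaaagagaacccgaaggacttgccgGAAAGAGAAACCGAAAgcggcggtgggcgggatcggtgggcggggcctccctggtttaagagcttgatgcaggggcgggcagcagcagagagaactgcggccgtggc
The STAT match begins 196 bases before the start. The 2 IRF matches begin 107 and 101 bases before it and overlap each other. The IRF motif was found in 3.41% of the 33469 windows and in none of the other 4 family members with a window.

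Socs3, the relative of Socs1 that blocks signalling from receptors of the gp130 family and from the leptin receptor, did not pass the test. Its log2 value ranged over 6.21, 6.34 and 6.49 (lowest, median, highest) in Pax5 cells, against 6.29, 6.41 and 6.66 in GFP cells. The groups overlapped. The log2 fold change was -0.09 (SE 0.0791, 95% interval -0.26 to 0.08, adjusted p = 0.446 from limma), with differences from -0.43 in experiment 6 to 0.16 in experiment 8 and a difference of 0.00 in experiment 2. Compared directly, the change of Socs1 exceeded that of Socs3 by 0.82 (SD 0.348, range 0.26 to 1.23), in 8 of 8 experiments (2-sided exact permutation test, p = 0.00781, adjusted p = 0.00781 over 3 pairs).

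Socs5, which belongs to the branch with a long N-terminal region and is known to act on the EGF receptor and on IL-4 signalling, was the only measured member that fell. Its log2 value ranged over 8.41, 8.81 and 9.08 (lowest, median, highest) in Pax5 cells, against 9.27, 9.41 and 9.60 in GFP cells. Every Pax5 array lay below every GFP array, with a gap of 0.19. Socs5 fell by 0.60 on the log2 scale (SE 0.0941, 95% interval -0.80 to -0.40, adjusted p = 0.000144 from limma), which is 1.52-fold lower. The fall was present in 8 of 8 experiments (2-sided exact permutation test, p = 0.00781), from -0.23 in experiment 7 and -0.24 in experiment 3 to -1.10 in experiment 1.

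Its closest relative, Socs4, did not pass the test. Log2 values of Socs4 ranged over 10.00, 10.13 and 10.20 (lowest, median, highest) in Pax5 cells, against 10.03, 10.23 and 10.33 in GFP cells. The groups overlapped, and the log2 fold change was -0.10 (SE 0.0684, 95% interval -0.25 to 0.04, adjusted p = 0.288 from limma). The change of Socs5 lay below that of Socs4 in 8 of 8 experiments, with a mean difference of -0.50 (SD 0.361, range -1.21 to -0.13, 2-sided exact permutation test, p = 0.00781, adjusted p = 0.00781 over 3 pairs). In these comparisons of relatives, probes of different clusters can respond to the same change to different degrees.

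Socs6, a member of the same broad branch that binds the receptor tyrosine kinase Kit and components of insulin signalling, did not pass the test either. Its log2 value ranged over 10.52, 10.75 and 10.89 (lowest, median, highest) in Pax5 cells, against 10.63, 10.83 and 11.04 in GFP cells, and the groups overlapped. The log2 fold change was -0.13 (SE 0.0824, 95% interval -0.31 to 0.04, adjusted p = 0.256 from limma). Experiments 1, 6 and 8 had differences of -0.41, -0.42 and -0.39, and the other 5 lay between -0.09 and 0.13. The intervals of Socs2, Socs3, Socs4 and Socs6 bound their changes but do not show that these genes were unaltered.

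**Figure D3:**
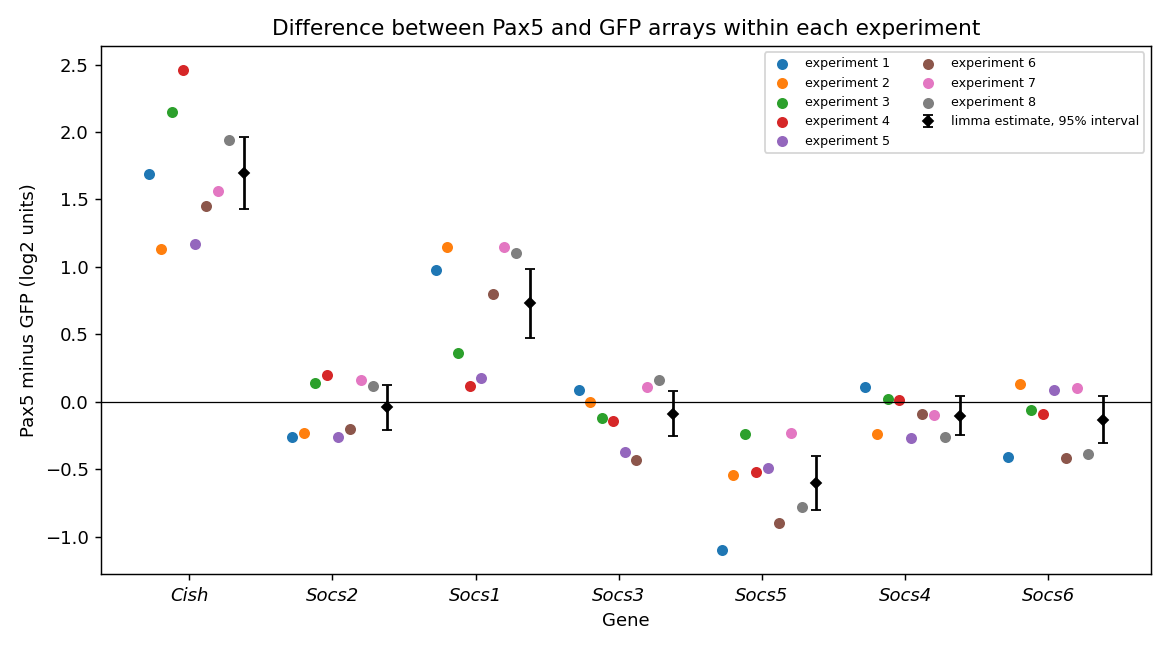
Difference in log2 value between the Pax5 and the GFP array of each of the 8 experiments (coloured points) for each measured member, with the limma estimate and its 95% interval (black). Cish and Socs1 lie above 0 and Socs5 below 0 in every experiment, and Socs2 splits into 4 positive and 4 negative experiments.

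Cish and Socs1 did not rise most in the same experiments. Experiments 3 and 4 had the largest rises of Cish (2.15 and 2.46) but small rises of Socs1 (0.36 and 0.12). Experiment 2 had the smallest rise of Cish (1.13) and, with experiment 7, the largest of Socs1 (1.15 in each). For this pair Pearson's r was -0.39, and 0.46 without experiments 3 and 4. Over the 8 experiments, none of the 21 pairs of members had differences that correlated after adjustment (exact permutation test over pairings, 2-sided, lowest adjusted p = 0.29 for Pearson's r and 0.595 for Spearman's rho). By Pearson 2 pairs, and by Spearman 0, had an unadjusted p under 0.05. Those 2 were Socs5 with Socs6 (r = 0.82) and Cish with Socs2 (r = 0.78). With 8 experiments, the lack of a pair that passed does not show that members varied independently. The difference in Pax5 itself ranged between 8.63 and 10.33 log2 units.

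The genes whose within-experiment differences followed those of a changed member most closely were sought among 15036 others by Pearson's r over the 8 experiments. For Cish they were Pcdhb5 (r = 0.98), Abhd15 (0.97) and Slc37a1 (0.97). For Socs1 they were Slc15a4 (0.97), Rps16 (0.96) and Aktip (0.96), and for Socs5 they were Rnf217 (0.98), Itgb1 (0.97) and Ddx5 (0.96). These are the highest of very many values over few experiments, and the arrays share the negative correlation of deviations described above, so they are given as a description only.

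Upstream of the family, the genes of the prolactin and growth hormone receptors were lower in Pax5 cells. The prolactin receptor gene Prlr ranged over 13.53, 13.75 and 13.99 (lowest, median, highest) in Pax5 cells, against 14.67, 14.79 and 14.86 in GFP cells, and fell by 1.00 (SE 0.0736, adjusted p = 5.56e-08 from limma), 1.99-fold. The growth hormone receptor gene Ghr ranged over 13.28, 13.38 and 13.52 in Pax5 cells, against 13.77, 13.95 and 14.08 in GFP cells, and fell by 0.55 (SE 0.0743, adjusted p = 3.22e-05 from limma). Both falls occurred in 8 of 8 experiments with no overlap between groups, and they stood beside a rise of Cish in the same cultures. Of the 4 measured genes for receptors that pair with themselves, these 2 were lower, and Epor (0.07) and Csf3r (-0.03) did not pass. Other receptor genes moved both ways. Of 13 for common chain receptors and related chains, 2 were higher, led by Il4r (0.94), and 2 lower, Il13ra1 (-0.51) and Crlf2 (-0.29). In the gp130 family, 2 of 7 were higher and 1 lower, led by Il6st (0.92), which encodes gp130, and Il6r (-0.63). For interferons and the IL-10 family, 4 of 8 were higher and 0 lower, led by Il20ra (0.78). Over all clusters 14.6% were higher and 16.1% lower, and nothing particular to these receptors is read from the counts. At an unadjusted p under 0.05, limma gave 5 higher and 0 lower in this last list, and the call of its weakest member, Il22ra1 (0.21, adjusted p = 0.0471), was lost without experiment 1, 2, 3, 4, 6 or 8. In median log2 fold change these 4 lists lay at -0.29, -0.02, -0.03 and 0.20.

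Among the kinases and factors that carry the signal, Jak1 fell by 0.77 (SE 0.0665, adjusted p = 2.96e-07 from limma) and Tyk2 rose by 0.62 (SE 0.08, adjusted p = 2.15e-05 from limma), each in 8 of 8 experiments. Jak2, the kinase of the prolactin and growth hormone receptors, had a log2 fold change of -0.10 and Jak3 one of 0.19, and neither passed. Of 6 measured STAT genes, Stat3 alone passed the test, with a fall of 0.42 (SE 0.07, adjusted p = 0.000227 from limma). The genes of the STAT5 proteins had log2 fold changes of 0.09 (Stat5a) and -0.09 (Stat5b), and those of Stat2, Stat4 and Stat6 were -0.14, 0.14 and -0.09. The median over the kinases was 0.04 and that over the STAT genes -0.09. Of all clusters, 14.6% were higher and 16.1% lower, and nothing particular to these genes is read from the counts.

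Other known targets of STAT5 went both ways. Of 11 measured, 3 were higher and 3 lower, with a median log2 fold change of -0.04. Over all clusters 14.6% were higher and 16.1% lower, and nothing particular to these targets is read from the count. Bcl2l1, which encodes the survival protein Bcl-xL, rose by 0.52, Igf1 rose by 0.45, and Tph1, the serotonin-synthesis enzyme that prolactin induces in β cells, rose by 0.29. The kinase genes Pim2 and Pim1 fell by 0.47 and 0.38, and cyclin D2, Ccnd2, fell by 0.52. By the methods' paired t-test the count of called STAT5 targets was 3 instead of 6, without Igf1, Pim1 and Ccnd2, and the call of Igf1 was also lost without experiment 4, 6 or 7.

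In the machinery through which the SOCS box works, 3 of 8 measured genes were lower and 0 higher by limma (also 0 higher at an unadjusted p under 0.05), with a median of -0.11. They were Cul5 (-0.26), the cullin scaffold of the ligase, Rnf7 (-0.27), its RING partner, and Arih2 (-0.31), a ubiquitin ligase that acts with it. The call of Cul5 (adjusted p = 0.0122 from limma) was lost at an adjusted p under 0.01. The elongin genes Eloc and Elob had log2 fold changes of -0.04 and 0.03 and did not pass. Of 9 measured other inhibitors of the pathway, Pias1 (0.50) was higher, and the phosphatase genes Ptpn2 (-0.52) and Ptpn11 (-0.43) were lower, with a median of 0.07. Of all clusters, 14.6% were higher and 16.1% lower. Nothing particular to the ligase genes or the other inhibitors is read from their counts. Over all 15 lists of pathway genes, 23 of 167 measured genes were higher and 32 lower (32.9% called), close to the 30.7% of all clusters.

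**Figure D4:**
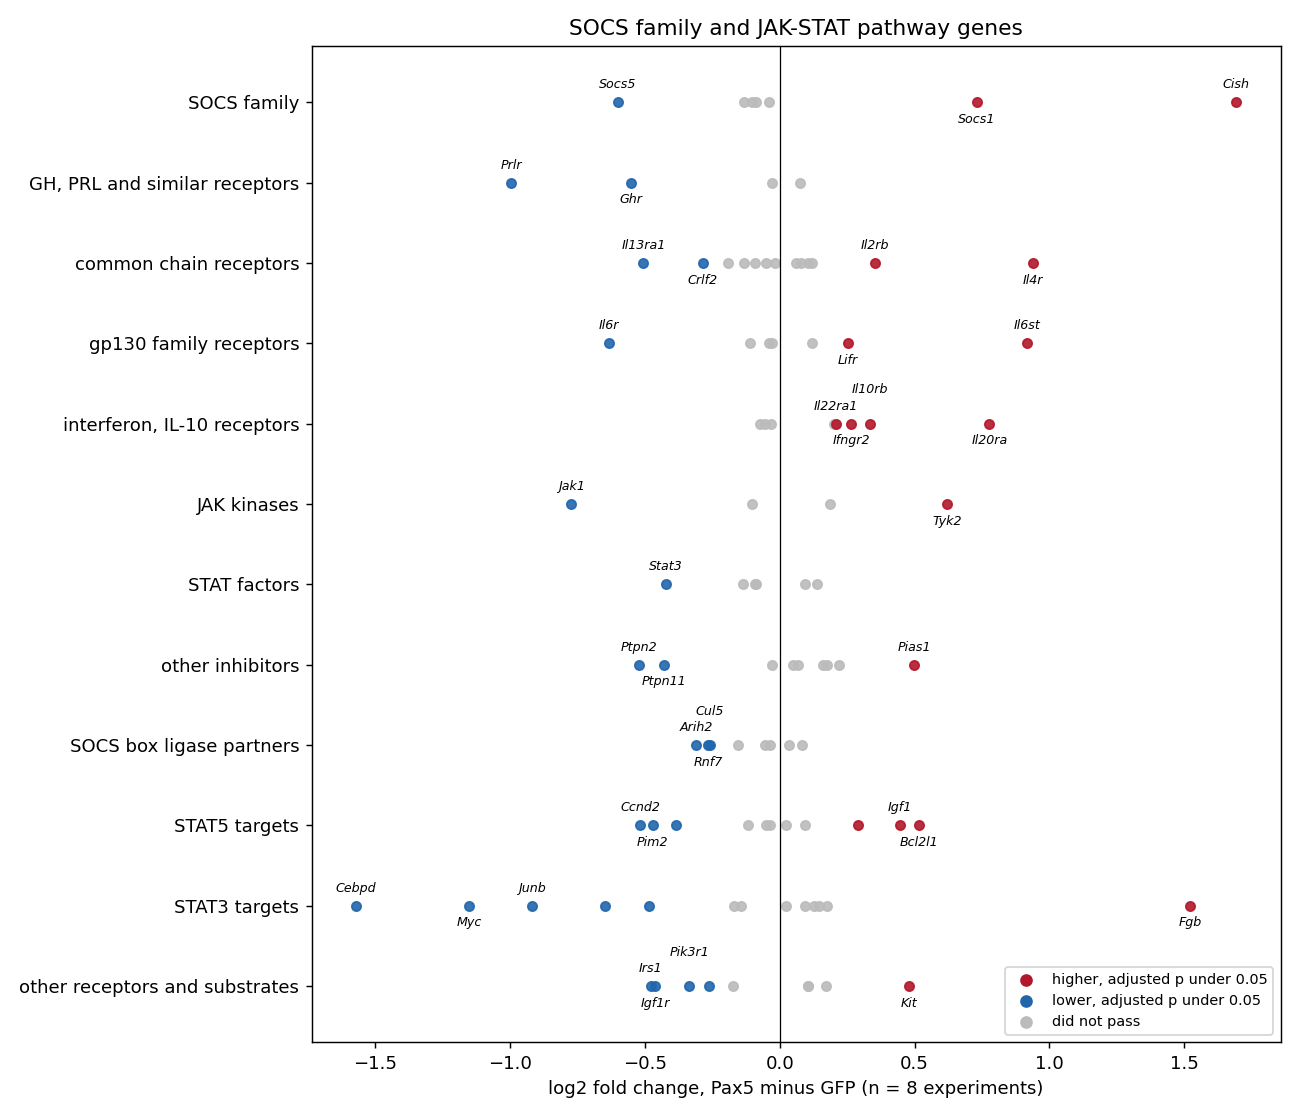
Log2 fold change between Pax5 and GFP (n = 8 experiments) of the 7 measured family members and of genes in 11 lists of the JAK-STAT pathway, 1 point per gene, red where higher, blue where lower and grey where the gene did not pass an adjusted p under 0.05 from limma. Cish lies furthest right of all genes shown, Prlr and Ghr lie on the left, and up to 4 called genes of each row are named.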

How the data were processed

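RNA of rat INS1 β cells was measured on Affymetrix GeneChip arrays. The deposited values are log2 RMA values from Transcriptome Analysis Console, per the labels; versions and batch adjustment: not given in the sources used here. Values have 2 decimals and were used with no filter, as scanner files were not used here. Symbols came from the platform annotation, updated through gene numbers of GRCr8 (0 changed), with the brightest cluster standing for a symbol. Differences were fitted in limma 3.58.1 (R 4.3.3), experiment number as a block, and single genes with exact sign flips over 8 pairs (scipy 1.17.1). The pairing comes from the labels, which number the experiments; deviations of same-numbered arrays correlated at -0.749 to -0.704, those of other pairs at -0.0893 to 0.259. The fit was tested on simulated data in which both arrays of an experiment shared its effect. The deposited values have the negative correlation given above instead, which that test does not cover. Members, lists and the rule for named genes (all members, each JAK and STAT gene, Prlr, Ghr, up to 4 called genes per list by lowest p) were chosen with earlier results of these data known. Alternatives were the fit without the block, other scalings, a brightness filter, array weights, trended and robust eBayes, the paired t-test, a stricter threshold and leaving out each experiment. One list of target genes is not reported here. The number of arrays limits the precision.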

Additional observations from a re-analysis of the deposited data

Results flagged for a closer look

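For 197 genes, the Pax5 and the GFP arrays (394 groups of 8) were searched for single outlying arrays by the gap to the nearest array as a share of the range. None of the 14 groups of the 7 family members was set apart by this measure, and 4 of the other groups were, where chance gives about 1 in 20. The Pax5 array of experiment 3 was highest for Asb14 (6.21, nearest 6.01), and that of experiment 6 was highest for Csf3r (4.27, nearest 4.03). The GFP array of experiment 2 was lowest for Ptpn11 (10.00, nearest 10.26), and that of experiment 1 was lowest for Slc2a2 (17.31, nearest 17.59).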

How the results depend on the processing

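The 7 measured members kept their direction and their side of the threshold under all 16 alternatives run for each, and 3 members were called in each of them. Leaving out each experiment gave log2 fold changes of 1.58 to 1.77 for Cish, 0.67 to 0.82 for Socs1 and -0.65 to -0.53 for Socs5. Adjusted p over the alternatives ranged from 2.16e-11 to 0.000662 for Cish (limma and the methods' t-test), 3.24e-06 to 0.0146 for Socs1 and 2.34e-06 to 0.00766 for Socs5, and stayed at 0.0867 or above for Socs2, Socs3, Socs4 and Socs6. Without the replicate block, the number of called clusters was 10584 instead of 7108, and no member's call changed. Adjusted p was lower there for Cish, Socs1 and Socs5, so this alternative does not check their calls. The 3 comparisons of relatives held without any 1 experiment (exact permutation test, adjusted p = 0.0156, the smallest that 7 pairs allow). Called genes over the pathway lists numbered between 44 and 76, against 55. Of 288 counts of single lists under an alternative, 20 moved by over 1.5 times or to or from 0, 6 of them without the block. Some of these moves were of a single gene. No other cluster carries a member's symbol, so that alternative was not run. The intervals given for Socs2, Socs3, Socs4 and Socs6 bound their changes and are not detection limits. The smallest change in these genes that this number of arrays can detect was not worked out.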

Other observations

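Genes that cytokines act through or induce, outside the family, moved in both directions. Across the array, 14.6% of clusters were higher and 16.1% lower. Nothing particular to the lists of this section is read from their counts. Among 13 measured targets of STAT3, 1 was higher and 5 were lower, with a median log2 fold change of -0.15. The transcription factor genes Cebpd (-1.57), Myc (-1.15), Junb (-0.92), Cebpb (-0.65) and Fos (-0.49) fell, and the fibrinogen gene Fgb rose by 1.52. Several of these are also induced by other signals. Of 10 measured genes of the response of β cells to inflammatory cytokines, Icam1 (-0.21) alone was called, and the median was 0.01. The call of Icam1 is lost without experiment 1, 3, 6 or 7 and is not tested where dim clusters are left out. At an unadjusted p under 0.05 from limma, 2 of the 10 were higher and 1 lower. Without the block 4 were called, and by the methods' t-test 2 were.

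Among 20 measured ligands, Il15 (1.02) and Il13 (0.22) were higher and Lif (-0.71) was lower (median -0.01), with 2 higher and 4 lower at an unadjusted p under 0.05 from limma and 7 called without the block. The call of Il13 (adjusted p = 0.0406) is lost without experiment 1, 2, 3, 4 or 5, after quantile normalization and by the methods' t-test, and is not tested where dim clusters are left out. Of 9 measured receptors and signalling proteins that SOCS proteins are known to bind, Kit (0.48) was higher. Irs1 (-0.48), Igf1r (-0.46), Pik3r1 (-0.34) and Irs2 (-0.26) were lower, and the median of the 9 was -0.17. By the methods' t-test 8 of the 9 were called, and 7 without the block or where dim clusters were left out. At an adjusted p under 0.01 from limma 4 were called. Of 27 other measured genes with a SOCS box, 3 were higher and 3 lower (median 0.00), led by Asb4 (-0.69), Wsb2 (-0.44) and Asb3 (0.35). At an unadjusted p under 0.05, limma gave 3 higher and 7 lower in this list, and 11 were called without the block, against 3 at an adjusted p under 0.01.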
